A study of Mus musculus with 34 samples.

Results

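The genes described here are 9 genes of fatty acid oxidation and its control by the peroxisome proliferator-activated receptors (PPARs), followed in mouse liver after partial hepatectomy (PHx). They were chosen by name, as the rows whose symbol is Ppara, Ppard, Cpt1a, Hadh, Ehhadh, Cyp4a10, Cyp4a14, Pdk4 or Angptl4, and make up 9 of the 78298 genes in the deposited table. All 9 passed the filter on low counts and were among the 14980 genes tested. PPARs are nuclear receptors that bind fatty acids and, as partners of the retinoid X receptor, switch on genes for fatty acid uptake, oxidation and ketone production. In the liver this programme is best known from fasting, when fatty acids released by fat tissue are burned in mitochondria and peroxisomes and part of the product leaves the hepatocyte as ketone bodies. After PHx the remnant liver also takes up fat for a time. Of the 9 genes, Ppara and Ppard encode receptors, and Pdk4 and Angptl4 are PPAR targets that encode no enzyme of fatty acid oxidation. None of the 9 genes encodes an enzyme of ketone synthesis itself, and ketone enzymes are covered below by a separate list.

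Bulk RNA sequencing of whole liver tissue was done in male mice of 8 to 12 weeks on a C57/Bl6 background, at 0, 6 and 24 h after removal of 70% of the liver (the left lateral and median lobes). The SIRT1intKO mice carried loxP sites around exon 4 of Sirt1, which encodes the deacetylase sirtuin 1, together with a Cre recombinase driven by the Villin promoter, which is active in the intestinal epithelium. Mice with the same floxed alleles and no Cre were the controls (WT). The 0 h mice are labelled as an untreated baseline, and the 6 groups held 6, 6 and 4 WT libraries and 6, 5 and 7 SIRT1intKO libraries at 0, 6 and 24 h. The WT group sizes after PHx in the paper's figure legends differ from those of the labels. In the order of the library numbers, WT replicate 6 at 6 h lay between SIRT1intKO replicates 6 and 7 at 24 h. The other 6 h libraries lay together elsewhere in that order. Labels were used as given, and whether the time label of that WT library is right was not tested.

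Library totals ran from 14892122 to 23480492 counts with a median of 16807340. The summed level of 6 hepatocyte markers was between 31460 and 80549 CPM (the count of a gene scaled to a common library size) in every library, and albumin was never at 0. By group it was 63636 to 74201 CPM at 0 h, 34056 to 69881 at 6 h and 31460 to 40337 at 24 h in WT, so that the WT groups at 0 h and 24 h did not overlap, and 55504 to 80549, 47846 to 64198 and 37446 to 71811 CPM in SIRT1intKO. Liver Sirt1 did not pass the test between genotypes at 0 h (log2 fold change −0.02, edgeR adjusted p = 1), at 6 h (−0.13, adjusted p = 0.933) or at 24 h (−0.65, adjusted p = 0.0726), and since the deletion is in the intestine this level does not check the labels. Of the 24 h libraries, 3 stood apart from the rest of their groups. By the library numbers in the deposited headers, these 3 follow one another directly among the labelled libraries, across both genotypes. Whether handling or labelling had a part in their standing apart was not tested. On the first principal component, which held 40.7% of the variance, WT replicates 3 and 4 lay at 8.02 to 17.6 and SIRT1intKO replicate 5 at −8.10, whereas the other 24 h libraries lay between −95.9 and −49.7, the 6 h libraries between −39.1 and −11.1 and the 0 h libraries between 51.0 and 78.2. Markers of other cells moved with this split, in both directions. The sum of 5 neutrophil markers was 5.28 to 10.9 CPM in the WT pair against 88.1 to 105 CPM in the other WT pair at 24 h, that of 4 cholangiocyte markers 15.4 to 17.3 against 83.3 to 116 CPM, and that of 4 adipocyte markers 2.59 to 3.25 against 24.96 to 74.6 CPM. SIRT1intKO replicate 5 had 18.5, 14.8 and 15.2 CPM for these sums, against 52.5 to 943, 20.5 to 54.2 and 90.4 to 172 CPM in the other 6 libraries. Other sums were higher in the WT pair standing apart. Sinusoidal endothelium markers gave 60.8 to 75.6 there against 30.5 to 38.1 CPM in the other WT pair. Stellate cell markers gave 152 to 157 against 97.4 to 101 CPM, and intestinal epithelium markers 69.6 to 77.9 against 32.5 to 37.2 CPM. The macrophage and Kupffer cell sums of the pairs overlapped. SIRT1intKO replicate 5 lay within the range of the other 6 for the endothelial, stellate and intestinal sums. High cholangiocyte sums were mostly Sox9, which reached 110 CPM. The other markers of that list, Krt19, Krt7 and Epcam, were at most 8.22, 4.48 and 11.2 CPM in any library. The adipocyte sum was 0.473 to 1.68 CPM at 0 h and 41.4 to 227 CPM at 6 h, nearly all of it Cidec, a lipid droplet gene, while the defining marker Adipoq was at 0 in 20 libraries and at most 5.32 CPM. The part of other cells in the results was not tested. Results at 24 h for the 9 genes, and for the pathway genes named, are therefore given with and without the 3 libraries. In bulk tissue, fewer cells of a type and less RNA per cell cannot be told apart, and because the 0 h libraries carry numbers of their own series, a difference in handling cannot be told apart from PHx in the comparisons with 0 h.

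PPARs are known to bind the DR1 element, a direct repeat of the hexamer AGGTCA with 1 free base between the copies. RefSeq promoter windows of mouse GRCm38.p6, from 250 bases before to 50 bases after the gene start, were held for 6 of the 9 genes, namely Ppara, Ppard, Cpt1a, Hadh, Ehhadh and Pdk4. With up to 2 mismatches, 0 of these 6 windows held the repeat on either strand, against 3.86% of all 32851 windows. The single hexamer was found on either strand in the 250 bases before the start of 1 of the 6, Cpt1a, against 14% of all windows. The 250 bases upstream of Cpt1a and Pdk4 are shown because, of these 6 genes, they were the ones that rose at 6 h in both genotypes. The capitals mark the hexamer, which reads TGACCT on the gene's strand and begins 94 bases before the Cpt1a start, and Pdk4 has none. A match is no more than a match of letters, and an absent match says nothing of elements elsewhere in the gene.
Cpt1a, chr19:3323051-3323300, plus strand: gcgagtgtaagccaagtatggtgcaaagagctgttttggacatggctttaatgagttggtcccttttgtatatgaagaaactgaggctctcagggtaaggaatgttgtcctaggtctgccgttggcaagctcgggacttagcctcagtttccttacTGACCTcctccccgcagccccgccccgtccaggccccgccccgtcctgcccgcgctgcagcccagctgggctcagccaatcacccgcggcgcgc
Pdk4, chr6:5496279-5496528, minus strand: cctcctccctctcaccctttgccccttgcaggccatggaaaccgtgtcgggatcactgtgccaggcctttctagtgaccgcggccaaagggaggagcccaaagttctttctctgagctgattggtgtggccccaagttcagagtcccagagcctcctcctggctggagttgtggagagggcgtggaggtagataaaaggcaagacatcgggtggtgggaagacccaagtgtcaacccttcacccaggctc

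At 6 h after PHx the WT liver showed higher Ppara, Cpt1a, Cyp4a10, Cyp4a14 and Pdk4 and lower Ppard and Hadh than at 0 h, while Ehhadh and Angptl4 did not pass the test. A gene passed when its edgeR quasi-likelihood p, adjusted by Benjamini-Hochberg over all genes tested, was under 0.05. Thus 5 of 9 were higher and 2 of 9 lower, where 18.9% of all tested genes were higher and 18.5% lower. In SIRT1intKO liver at 6 h, 3 of 9 were higher (Cpt1a, Cyp4a14 and Pdk4) and 2 of 9 lower (Ppard and Hadh), where 20.9% of all tested genes were higher and 17.6% lower. Leaving out the 3 libraries standing apart at 24 h, which share the estimate of spread, gave 6 of 9 higher and 2 lower in WT (21.5% and 19.3% of genes), Angptl4 joining at 0.55 (adjusted p = 0.0471), and 4 of 9 higher and 2 lower in SIRT1intKO (22.2% and 19.6% of genes), Cyp4a10 joining at 1.62 (adjusted p = 0.015). A gene past the threshold in 1 genotype only is not thereby different between genotypes, and the tests of that difference follow the single genes.

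At 24 h after PHx, Pdk4 and Cyp4a14 were higher and Ppard, Hadh and Ehhadh lower than at 0 h in WT liver, which is 2 of 9 higher and 3 of 9 lower against 19.5% and 14.6% of all tested genes. Without the 3 libraries standing apart the WT count was 1 higher (Pdk4) and 4 lower (Ppard, Hadh, Ehhadh and Cpt1a), against 26.2% and 23.5% of genes. In SIRT1intKO liver, Cpt1a, Cyp4a14 and Pdk4 were higher and Ppard and Hadh lower at 24 h, 3 of 9 and 2 of 9 against 26.2% and 24% of genes, and the same 5 genes passed in the same directions without the 3 libraries, against 30.1% and 24.6%.

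**Figure D1:**
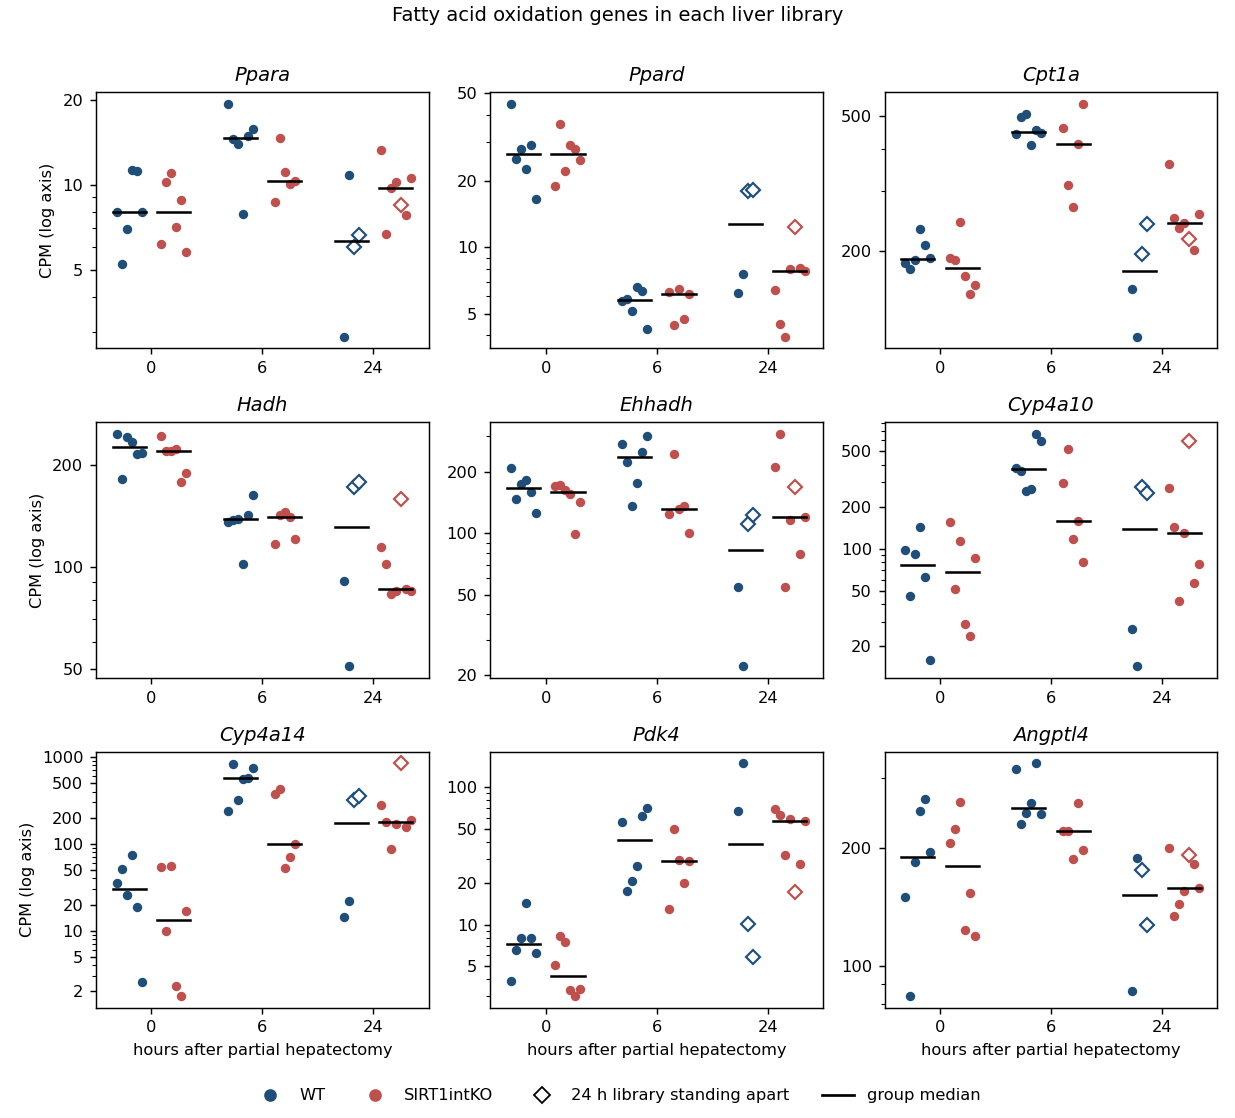
CPM (log axis) of each of the 9 genes in every library against hours after PHx, WT in blue and SIRT1intKO in red, with open diamonds for the 3 libraries standing apart at 24 h and a bar for the group median. Ppard and Hadh lie highest at 0 h and Cpt1a at 6 h. In WT at 24 h the open and filled points lie apart from each other for every gene but Ppara and Angptl4.

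Ppara encodes PPAR alpha, the main PPAR of hepatocytes. In WT liver it lay at 5.21 to 11.3 CPM (median 8.002) at 0 h, at 7.85 to 19.3 CPM (median 14.7) at 6 h, and at 2.89, 10.8, 6.02 and 6.62 CPM at 24 h. In SIRT1intKO liver it lay at 5.77 to 10.99 CPM (median 7.97) at 0 h, at 8.66, 14.6, 11.1, 10.01 and 10.3 CPM at 6 h, and at 6.68 to 13.2 CPM (median 9.73) at 24 h. WT at 6 h was the highest group, though each group overlapped the next in the order of the means. The 6 h change was 0.77 on the log2 scale in WT (SE 0.24, adjusted p = 0.0111 in edgeR) and 0.42 in SIRT1intKO (SE 0.25, adjusted p = 0.187). The 24 h log2 fold changes against 0 h were −0.36 in WT (SE 0.27, adjusted p = 0.314) and 0.22 in SIRT1intKO (SE 0.23, adjusted p = 0.433), or −0.26 (adjusted p = 0.558) and 0.28 (adjusted p = 0.334) without the 3 libraries.

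Ppard encodes PPAR delta, a receptor of the same family that is expressed in most tissues. It was at 16.7 to 44.8 CPM (median 26.5) in WT and 18.997 to 36.3 CPM (median 26.6) in SIRT1intKO at 0 h. At 6 h the WT libraries held 4.28 to 6.63 CPM (median 5.77) and the SIRT1intKO libraries 6.28, 4.44, 6.48, 4.73 and 6.17 CPM, so that every 6 h library was below every 0 h library of its genotype. The 6 h log2 fold change was −2.29 in WT (SE 0.26, adjusted p = 8.06e-08) and −2.24 in SIRT1intKO (SE 0.28, adjusted p = 4.56e-07). At 24 h the WT values were 6.21, 7.60, 17.96 and 18.2 CPM, the last 2 from the libraries standing apart, and SIRT1intKO values ran from 3.94 to 12.4 CPM (median 7.79), the highest again from the library standing apart. All SIRT1intKO libraries at 24 h thus lay below their 0 h group, whereas the WT groups overlapped. Against 0 h the 24 h log2 fold change was −1.15 in WT (SE 0.29, adjusted p = 0.00286) and −1.86 in SIRT1intKO (SE 0.25, adjusted p = 4.92e-07), and without the 3 libraries −1.97 (adjusted p = 7.43e-06) and −1.997 (adjusted p = 3.02e-09).

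Cpt1a encodes carnitine palmitoyltransferase 1A, the gatekeeper of long-chain fatty acid entry into liver mitochondria. Its 0 h levels were 177 to 233 CPM (median 190) in WT and 149 to 243 CPM (median 179) in SIRT1intKO. They reached 411 to 508 CPM (median 450) in WT at 6 h and 463, 312, 271, 414 and 543 CPM in SIRT1intKO. No 6 h library overlapped the 0 h libraries of its genotype, and the rise was 1.22 log2 units in WT (SE 0.17, adjusted p = 1.18e-06) and 1.13 in SIRT1intKO (SE 0.17, adjusted p = 7.69e-06). At 24 h the WT libraries read 154, 112, 196 and 240 CPM, the SIRT1intKO libraries 202 to 361 CPM (median 243). In WT, 154 and 112 CPM lay below the 0 h range, and the pair standing apart lay within it at 196 CPM and just above it at 240 CPM. All 7 knockout libraries lay above their 0 h median and overlapped the top of the 0 h range. The log2 fold change at 24 h was −0.17 in WT (SE 0.18, adjusted p = 0.501) and 0.46 in SIRT1intKO (SE 0.16, adjusted p = 0.017). Leaving out the 3 libraries gave −0.54 (adjusted p = 0.0423) and 0.53 (adjusted p = 0.00383), and the SIRT1intKO call was lost without SIRT1intKO replicate 1 at 24 h (361 CPM) or replicate 5 at 0 h.

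Hadh encodes the mitochondrial short-chain 3-hydroxyacyl-CoA dehydrogenase, which carries out the second oxidation step of the beta-oxidation spiral. At 0 h it was at 182 to 248 CPM (median 225) in WT and 178 to 243 CPM (median 220) in SIRT1intKO. At 6 h it was at 102 to 163 CPM (median 138) in WT and at 117, 142, 145, 141 and 121 CPM in SIRT1intKO, below every 0 h library in both genotypes. The log2 fold changes were −0.71 in WT (SE 0.20, adjusted p = 0.00494) and −0.67 in SIRT1intKO (SE 0.21, adjusted p = 0.0106). By 24 h the WT libraries read 90.6, 50.8, 172 and 178 CPM, the higher pair being the libraries standing apart, and the knockout libraries 82.8 to 159 CPM (median 86.0). Both genotypes stayed below their 0 h range. The 24 h log2 fold change was −0.86 in WT (SE 0.22, adjusted p = 0.00379) and −1.06 in SIRT1intKO (SE 0.19, adjusted p = 3.23e-05), or −1.63 (adjusted p = 8.86e-08) and −1.16 (adjusted p = 8.48e-09) without the 3 libraries.

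Ehhadh encodes the bifunctional enzyme of peroxisomal beta-oxidation and is a classical PPAR alpha target. In WT liver it was at 125 to 209 CPM (median 167) at 0 h, at 136 to 301 CPM (median 238) at 6 h, and at 54.4, 22.2, 111 and 122 CPM at 24 h. In SIRT1intKO liver it was at 99.04 to 172 CPM (median 159) at 0 h, at 124, 245, 131, 136 and 101 CPM at 6 h, and at 54.2 to 309 CPM (median 120) at 24 h. All 4 WT libraries at 24 h lay under the WT 0 h range, and the knockout libraries at 24 h spread to both sides of their own. Neither genotype passed at 6 h (log2 fold change 0.45, SE 0.33, adjusted p = 0.301 in WT and −0.03, SE 0.35, adjusted p = 0.958 in SIRT1intKO, in edgeR). At 24 h it fell in WT (−1.11, SE 0.38, adjusted p = 0.0249, and −2.09, adjusted p = 0.0007, without the 3 libraries), and the SIRT1intKO value was 0.01 (SE 0.32, adjusted p = 0.98, or 0.017, adjusted p = 0.965, without them). The WT call at 24 h was lost when either WT replicate 1 (54.4 CPM) or WT replicate 2 (22.2 CPM) was left out.

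Cyp4a10 and Cyp4a14 encode microsomal cytochrome P450 enzymes that hydroxylate the far (omega) end of fatty acids, and both are strong PPAR alpha targets in mouse liver. Their family has near-identical copies, so the split of reads between them is uncertain. Cyp4a10 lay at 16.03 to 144 CPM (median 77.1) in WT and 23.9 to 155 CPM (median 68.6) in SIRT1intKO at 0 h, and at 6 h it lay at 260 to 669 CPM (median 370) in WT and at 296, 522, 117, 157 and 80.4 CPM in SIRT1intKO. Cyp4a14 lay at 2.56 to 75.1 CPM (median 30.5) in WT and 1.77 to 55.8 CPM (median 13.4) in SIRT1intKO at 0 h, and at 6 h at 236 to 829 CPM (median 572) in WT and at 370, 433, 53.3, 71.4 and 99.9 CPM in SIRT1intKO. For both genes every WT library at 6 h was above every WT library at 0 h, whereas the knockout groups overlapped and knockout replicates 1 and 2 were the highest of their 6 h group. The 6 h log2 fold changes of Cyp4a10 were 2.46 in WT (SE 0.68, adjusted p = 0.00479) and 1.62 in SIRT1intKO (SE 0.68, adjusted p = 0.0592), and the latter passed when any 1 of 4 libraries was left out. Those of Cyp4a14 were 3.97 in WT (SE 0.87, adjusted p = 0.000599) and 3.14 in SIRT1intKO (SE 0.86, adjusted p = 0.00462).

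The WT libraries at 24 h split on both Cyp4a genes. Cyp4a10 read 26.7 and 14.4 CPM in WT replicates 1 and 2 and 279 and 252 CPM in the 2 standing apart, and 42.3 to 587 CPM (median 130) in SIRT1intKO, with 587 CPM in the knockout library standing apart. Cyp4a14 read 14.5 and 22.2 CPM against 323 and 359 CPM in the same WT libraries, and 88.3 to 849 CPM (median 181) in SIRT1intKO, with 849 CPM again in the library standing apart. For each gene the 3 libraries standing apart were thus the upper pair of WT and the top knockout library. The 24 h log2 fold change of Cyp4a10 was 0.91 in WT (SE 0.71, adjusted p = 0.336) and 1.29 in SIRT1intKO (SE 0.64, adjusted p = 0.0902), and that of Cyp4a14 was 2.37 in WT (SE 0.87, adjusted p = 0.0338) and 3.55 in SIRT1intKO (SE 0.85, adjusted p = 0.000926). Without the 3 libraries the WT values turned to −1.86 for Cyp4a10 (adjusted p = 0.0552) and −0.89 for Cyp4a14 (adjusted p = 0.475), so the WT rise of Cyp4a14 at 24 h rested on the 2 WT libraries standing apart. In SIRT1intKO, Cyp4a14 was then at 2.95 (adjusted p = 0.000811) and Cyp4a10 at 0.69 (adjusted p = 0.254), and every knockout library at 24 h lay above every one at 0 h for Cyp4a14.

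Pdk4 encodes pyruvate dehydrogenase kinase 4, which shuts off pyruvate oxidation when fatty acids are the fuel. In WT liver it was at 3.88 to 14.3 CPM (median 7.23) at 0 h and 17.5 to 70.3 CPM (median 41.3) at 6 h, and in SIRT1intKO liver at 3.02 to 8.28 CPM (median 4.25) at 0 h and at 12.9, 49.4, 29.3, 19.9 and 28.8 CPM at 6 h. Groups at 6 h and 0 h did not overlap in either genotype, with a rise of 2.43 log2 units in WT (SE 0.54, adjusted p = 0.00071) and 2.46 in SIRT1intKO (SE 0.57, adjusted p = 0.000996). Later, at 24 h, the WT libraries read 66.7 and 150 CPM, and 10.002 and 5.77 CPM in the pair standing apart, while the knockout libraries read 17.2 to 69.4 CPM (median 56.6) with the lowest in the library standing apart. Here the split ran the other way from that of the Cyp4a genes, and the WT pair standing apart lay inside the 0 h range. The 24 h log2 fold change was 2.89 in WT (SE 0.58, adjusted p = 0.000355) and 3.18 in SIRT1intKO (SE 0.56, adjusted p = 2.56e-05), with 1.82 (adjusted p = 0.0175) in WT without WT replicate 2 (150 CPM), and 3.82 (adjusted p = 1.09e-07) and 3.36 (adjusted p = 5.13e-08) without the 3 libraries.

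Angptl4 encodes angiopoietin-like 4, a secreted inhibitor of lipoprotein lipase and a PPAR target. It was at 83.8 to 265 CPM (median 190) in WT and 119 to 261 CPM (median 179) in SIRT1intKO at 0 h, and at 6 h at 230 to 328 CPM (median 252) in WT and 221, 221, 187, 260 and 197 CPM in SIRT1intKO. Values at 24 h were 86.1, 188, 175 and 127 CPM in WT and, in SIRT1intKO, 134 to 199 CPM (median 158). All these groups overlapped their 0 h group. None of the 4 comparisons with 0 h passed in edgeR (log2 fold change 0.53 in WT, adjusted p = 0.0521, and 0.26 in SIRT1intKO, adjusted p = 0.368, at 6 h, with −0.38, adjusted p = 0.231, and −0.12, adjusted p = 0.646, at 24 h), although the WT value at 6 h passed when any 1 of 6 libraries was left out, nor did the 24 h values without the 3 libraries (−0.42, adjusted p = 0.28, and −0.12, adjusted p = 0.654).

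**Figure D2:**
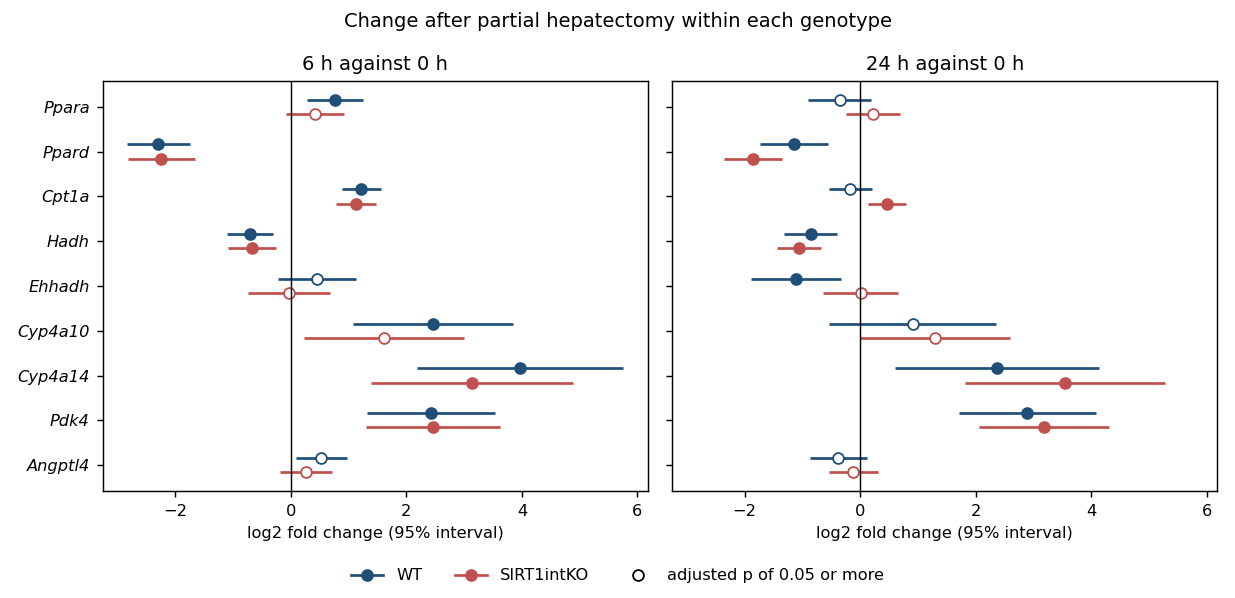
Log2 fold change against 0 h, with its 95% interval, for each gene in WT (blue) and SIRT1intKO (red), at 6 h (left) and 24 h (right), with open points where the edgeR adjusted p is 0.05 or more. Ppard and Hadh sit left of zero at both times in both genotypes, Cyp4a14 and Pdk4 sit right of it, and Cpt1a at 24 h lies at −0.17 in WT and 0.46 in SIRT1intKO.

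Between 6 and 24 h, Cpt1a fell in both genotypes, by 1.39 log2 units in WT (log2 fold change −1.39, SE 0.19, adjusted p = 1.41e-05) and by 0.67 in SIRT1intKO (−0.67, SE 0.17, adjusted p = 0.00335). In WT, Ppara (−1.12, SE 0.27, adjusted p = 0.00506), Ehhadh (−1.55, SE 0.39, adjusted p = 0.00651) and Angptl4 (−0.91, SE 0.25, adjusted p = 0.0111) were lower too, and Ppard was higher (1.14, SE 0.28, adjusted p = 0.00593), each in edgeR. The Angptl4 call was lost without WT replicate 1 at 24 h (86.1 CPM). That is 4 of 9 lower and 1 of 9 higher in WT, against 6.43% and 10% of all tested genes, and 1 of 9 lower and 0 higher in SIRT1intKO, against 14.4% and 13.2%. When the 3 libraries were left out, 7 of 9 were lower in WT (16.4% of genes), Cyp4a10 (−4.34, adjusted p = 0.000723), Cyp4a14 (−4.88, adjusted p = 0.00353) and Hadh (−0.94, adjusted p = 0.000287) joining those named, and 1 was higher (18% of genes), Pdk4 at 1.38 (adjusted p = 0.0225). Ppard was then at 0.30 (adjusted p = 0.45). In SIRT1intKO that step left 2 of 9 lower, Cpt1a (−0.60, adjusted p = 0.00404) and Hadh (−0.49, adjusted p = 0.00433), against 16.2% of genes.

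The genotypes were compared at each time to ask whether loss of SIRT1 in the intestine went with another level of these genes in the liver. At 0 h and at 6 h, 0 of 9 passed in edgeR, where 0% of all genes tested passed at either time. DESeq2 also called 0 of 9, and at an unadjusted p under 0.05 it was 0 of 9 at both times in edgeR, against 1.07% and 6.52% of all genes. The log2 fold changes of SIRT1intKO against WT ran from −0.61 (Pdk4) to 0.00 (Cyp4a10) at 0 h. At 6 h they ran from −1.41 (Cyp4a14) to −0.01 (Ppard), all 9 below zero, with a smallest adjusted p of 0.774 in edgeR. Hadh, at −0.03, was also close to zero, and the median over all genes tested was 0.01. The shared sign was not tested. At 24 h, 0 of 9 passed in edgeR, where 2.3% of genes were higher and 3.51% lower. DESeq2 called Cpt1a (0.53, adjusted p = 0.043). Those shares are of edgeR, and none is given here for DESeq2, so this call has no background beside it. In edgeR, Cpt1a was at 0.52 (95% interval 0.15 to 0.89, adjusted p = 0.0775), Ehhadh at 0.97 (0.21 to 1.73, adjusted p = 0.108) and Ppard at −0.77 (−1.32 to −0.22, adjusted p = 0.079), and these were the 3 members with an unadjusted p under 0.05, as 23.4% of all genes had.

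Without the 3 libraries standing apart, which leaves 2 WT and 6 SIRT1intKO libraries at 24 h, 4 of 9 were higher in SIRT1intKO and 0 lower, against 8.19% and 9.36% of all genes. These were Cpt1a (0.97, SE 0.22, 95% interval 0.51 to 1.43, adjusted p = 0.00404), Ehhadh (1.97, SE 0.48, interval 0.99 to 2.95, adjusted p = 0.00587), Cyp4a10 (2.56, SE 0.84, interval 0.84 to 4.29, adjusted p = 0.0347) and Cyp4a14 (3.28, SE 1.15, interval 0.93 to 5.63, adjusted p = 0.0464). Ppard was then at −0.08 (adjusted p = 0.882) and Hadh at 0.40 (adjusted p = 0.12). The WT side of these values is 2 libraries, which were also the lowest of their group for Ehhadh, Cyp4a10, Cyp4a14 and Cpt1a. The leaving out was chosen after the data were seen.

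**Figure D3:**
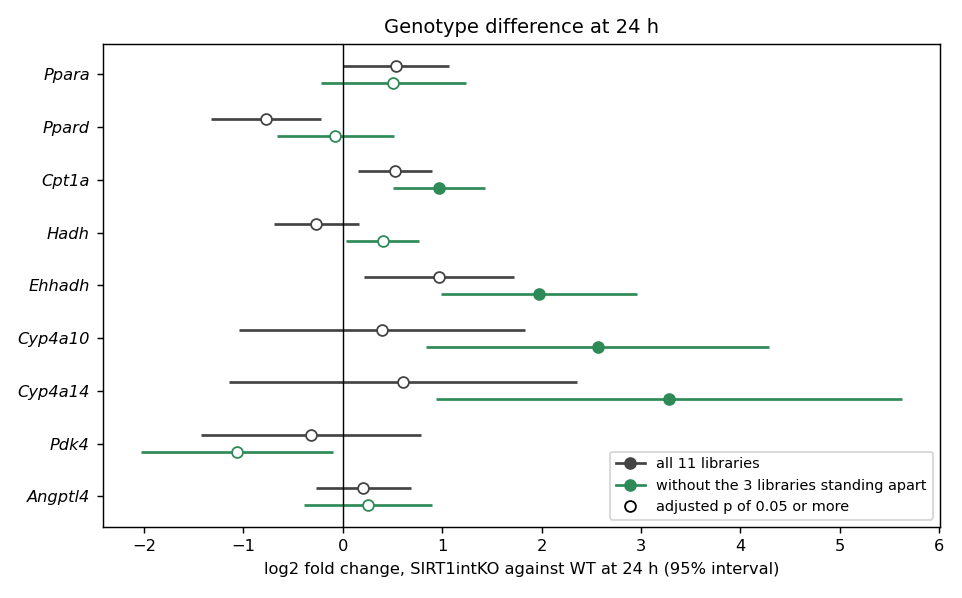
Log2 fold change of SIRT1intKO against WT at 24 h with its 95% interval for each gene, with all 11 libraries of that time (grey) and without the 3 standing apart (green), and open points where the edgeR adjusted p is 0.05 or more. All 9 grey points are open, and 4 green points are filled, all to the right of zero.

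The response to PHx itself was compared between genotypes by the interaction of genotype and time. At 6 h against 0 h, 0 of 9 passed in edgeR or in DESeq2, and 0 of 9 had an unadjusted p under 0.05, with interaction values from −0.85 to 0.05 on the log2 scale, where 0% of genes passed and 3.05% had an unadjusted p under 0.05. For 24 h against 0 h, 0 of 9 passed in edgeR or in DESeq2, where 0.00668% of genes were higher and 0% lower (12.7% had an unadjusted p under 0.05). The interaction was 0.63 for Cpt1a (95% interval 0.13 to 1.13, adjusted p = 0.277) and 1.12 for Ehhadh (0.11 to 2.12, adjusted p = 0.339), the 2 members with an unadjusted p under 0.05. With the 3 libraries left out, Cpt1a (1.07, adjusted p = 0.0175) and Ehhadh (2.11, adjusted p = 0.023) passed, which is 2 of 9 higher and 0 lower against 3.09% and 3.53% of genes, and Cyp4a10 (2.55, adjusted p = 0.096) and Cyp4a14 (3.84, adjusted p = 0.068) did not. Here too the WT side at 24 h is 2 libraries, left by a choice made after the data were seen.

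The wider pathway was read from 7 lists of 78 genes in all, with the 9 among them, and all 78 were tested. The lists were chosen with earlier results of these data known, so their counts, here and below, are a description and no test of the pathway. At 6 h in WT, 33 were higher and 11 lower, which is 42.3% and 14.1% against 18.9% and 18.5% of all tested genes, with a median log2 fold change of 0.41 over the lists and 0.02 over all genes. The receptors and cofactors gave 4 higher and 2 lower of 12, the carnitine shuttle and mitochondrial beta-oxidation 8 and 3 of 18, peroxisomal beta-oxidation 5 and 3 of 14, and omega-oxidation 4 and 0 of 7. Ketogenesis and ketone export gave 1 and 1 of 5, acyl-CoA synthetases and thioesterases 3 and 2 of 10, and other PPAR targets 8 and 0 of 12. In SIRT1intKO at 6 h the same lists gave 22 higher and 7 lower, 28.2% and 8.97% against 20.9% and 17.6%, with a median of 0.21 against 0.01 over all genes. Without the 9 members, 28 were higher and 9 lower of 69 at 6 h in WT, and 19 and 5 in SIRT1intKO. The counts of single lists rest on few genes, and several of them lie near the shares of all tested genes.

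Several list genes passed at 6 h in both genotypes. Fgf21, a hepatic hormone of fasting, rose in WT (3.59, edgeR adjusted p = 0.000511) and SIRT1intKO (2.93, adjusted p = 0.00525), and so did Ppargc1a, a coactivator of PPARs (1.41, adjusted p = 0.00348, and 0.98, adjusted p = 0.0451), and Eci2, an isomerase for unsaturated fatty acids (1.13, adjusted p = 1.53e-05, and 0.97, adjusted p = 0.000183). Fgf21 was at a low level, with a mean over the libraries compared of 3.86 CPM in WT and 2.06 CPM in SIRT1intKO. Its SIRT1intKO groups at 6 h and 0 h overlapped. Slc16a1, a monocarboxylate transporter that carries ketone bodies, rose by 0.82 (adjusted p = 0.00747) and 0.70 (adjusted p = 0.0254), and Cyp4a31 by 2.74 (adjusted p = 4.04e-06) and 1.91 (adjusted p = 0.000465). In the other direction, Acsl1, which activates long-chain fatty acids, was at −1.17 (adjusted p = 0.00482) and −1.91 (adjusted p = 8.64e-05), and the peroxisomal thiolase Acaa1b at −1.56 (adjusted p = 0.000835) and −1.14 (adjusted p = 0.0149). Further extremes of their lists were Crat (1.41, adjusted p = 0.000138), Acot2 (2.34, adjusted p = 1.76e-05), Pparg (−0.56, adjusted p = 0.0411) and the ketone enzyme Bdh1 (−0.54, adjusted p = 0.0189) in WT, and the low-level Acot3 (4.27, adjusted p = 4.23e-05) in SIRT1intKO. Eci1 fell in both, to −0.55 (adjusted p = 0.0301) and −0.56 (adjusted p = 0.036). Some of these calls lay near the threshold. With 1 library left out at a time, Ppargc1a in SIRT1intKO was lost with any of 14 of the 34 libraries, Pparg in WT with any of 9, Slc16a1 in SIRT1intKO with any of 5, Eci1 with any of 4 in WT and 5 in SIRT1intKO, and Bdh1 without WT replicate 3 at 0 h. Fgf21 in SIRT1intKO was at 2.20 (adjusted p = 0.042) without SIRT1intKO replicate 5 at 6 h and at 3.66 (adjusted p = 0.00252) without replicate 2 at 0 h.

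By 24 h more list genes were lower than higher. In WT, 12 were higher and 24 lower, 15.4% and 30.8% against 19.5% and 14.6% of all tested genes (median −0.33, all genes 0.02). Without the 3 libraries the WT counts were 12 and 39 of 78, where 26.2% of all genes were higher and 23.5% lower. In SIRT1intKO, 18 were higher and 25 lower, 23.1% and 32.1% against 26.2% and 24% of all tested genes (median −0.12, all genes 0.04). Without the 3 libraries the SIRT1intKO counts were 20 and 28 of 78, where 30.1% of all genes were higher and 24.6% lower. Mitochondrial beta-oxidation gave 1 higher and 7 lower of 18 in WT and 4 and 8 in SIRT1intKO, peroxisomal beta-oxidation 1 and 6 of 14 and then 1 and 7, and ketogenesis 1 and 2 of 5 and then 1 and 1. With the 3 libraries left out, these lists gave 1 and 12, 1 and 9, and 1 and 4 in WT, and 4 and 9, 2 and 7, and 1 and 1 in SIRT1intKO. Lower in both genotypes were Lpin1, a coactivator of PPAR alpha (−1.98, edgeR adjusted p = 5.73e-05, in WT and −2.09, adjusted p = 5.06e-07, in SIRT1intKO), Acaa1b (−2.66, adjusted p = 3.21e-05, and −1.70, adjusted p = 0.000129), Acsl1 (−1.60, adjusted p = 0.00166, and −2.68, adjusted p = 1e-07), Eci1 (−1.29, adjusted p = 0.000125, and −1.23, adjusted p = 6.78e-06), Cyp4a12a (−2.02, adjusted p = 0.000467, and −1.84, adjusted p = 4.92e-05) and Acat1, the first enzyme of ketogenesis (−0.79, adjusted p = 0.0112, and −0.81, adjusted p = 0.0012). Higher in both were Acadl, a long-chain acyl-CoA dehydrogenase (0.44, adjusted p = 0.00339, and 0.74, adjusted p = 5.91e-07), the peroxisomal transporter Abcd2 (2.23, adjusted p = 0.00206, and 3.75, adjusted p = 1.21e-06), Slc16a1 (1.93, adjusted p = 3.22e-06, and 0.75, adjusted p = 0.00766), Acot3 (3.63, adjusted p = 0.000205, and 3.25, adjusted p = 0.000386) and Cyp4a31 (1.60, adjusted p = 0.00459, and 2.52, adjusted p = 5.98e-06), the WT rise of Cyp4a31 not passing without the 3 libraries (1.16, adjusted p = 0.071).

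The other calls just named passed in the same direction without the 3 libraries. In WT the edgeR log2 fold changes were then −1.89 for Lpin1, −3.28 for Acaa1b, −2.87 for Acsl1, −2.11 for Eci1, −2.40 for Cyp4a12a and −1.27 for Acat1, and 0.60 for Acadl, 2.10 for Abcd2, 2.60 for Slc16a1 and 4.47 for Acot3, with a largest adjusted p of 0.00856. In SIRT1intKO they were −2.01, −1.61, −2.83, −1.30, −1.74 and −0.82 for the same genes that were lower, and 0.80, 3.90, 0.79, 3.30 and, for Cyp4a31, 2.59 for those that were higher, with a largest adjusted p of 0.000713. With all libraries, Abcd2 and Acot3 were at low levels. Their means over the libraries compared were 2.91 and 4.18 CPM in WT and 6.92 and 1.83 CPM in SIRT1intKO. For both genes the 24 h and 0 h groups overlapped in WT and did not in SIRT1intKO. Single libraries moved some sizes, the WT value of Abcd2 being 3.18 without WT replicate 2 at 0 h and that of Acot3 2.84 without WT replicate 2 at 24 h, and the WT call of Acat1 was lost without WT replicate 2 at 24 h.

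Among the other extremes at 24 h, Plin2, which coats lipid droplets, was at 1.69 (adjusted p = 0.000241) and Fabp1, the liver fatty acid binding protein, at −1.69 (adjusted p = 0.00414) in WT, or 2.32 (adjusted p = 4.46e-07) and −2.48 (adjusted p = 0.0011) without the 3 libraries. Plin2 was at 0.98 (adjusted p = 0.0143) without WT replicate 2 at 24 h. In SIRT1intKO, Fgf21 was at 4.96 (adjusted p = 9.55e-06), Creb3l3, a transcription factor that works with PPAR alpha, at 0.36 (adjusted p = 0.0182) and Txnip at −1.05 (adjusted p = 0.0133), or 5.19 (adjusted p = 2.02e-06), 0.43 (adjusted p = 0.00656) and −0.98 (adjusted p = 0.0292) without the 3 libraries. The Creb3l3 call was lost with any of 2 single libraries left out and the Txnip call without SIRT1intKO replicate 2 at 0 h, and Fgf21 was at 5.71 without SIRT1intKO replicate 2 at 0 h. Between 6 and 24 h the lists gave 3 higher and 37 lower in WT, 3.85% and 47.4% against 10% and 6.43% of all tested genes, and 3 and 26 in SIRT1intKO, 3.85% and 33.3% against 13.2% and 14.4%. Without the 3 libraries they gave 6 and 50 in WT and 4 and 24 in SIRT1intKO, where 18% and 16.4%, and 18.4% and 16.2%, of all genes passed.

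**Figure D4:**
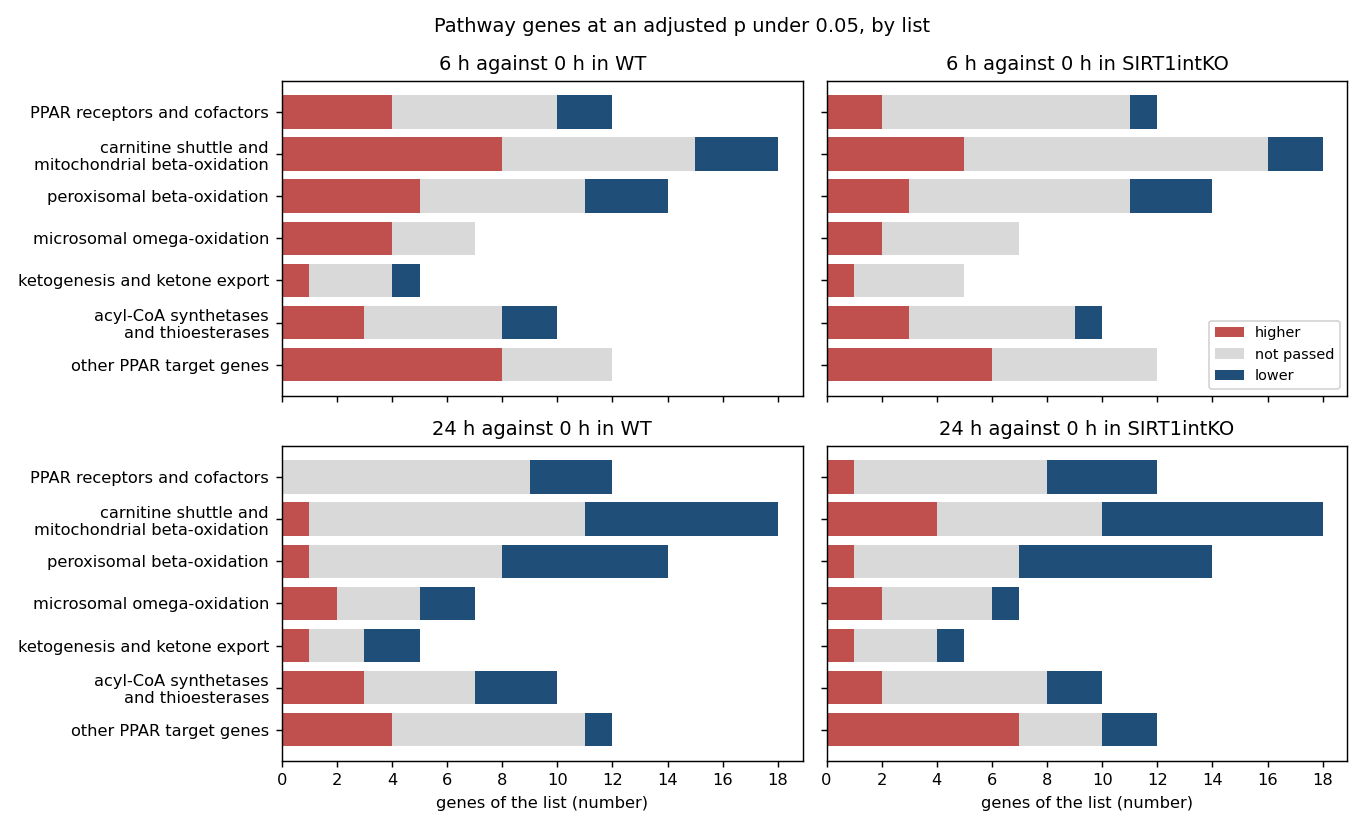
Number of genes in each of the 7 lists that were higher (red), lower (blue) or did not pass (grey) at an edgeR adjusted p under 0.05, for 6 h and 24 h against 0 h in each genotype. Red is wider than blue in the mitochondrial list at 6 h (8 and 3 genes in WT), and blue is wider at 24 h (1 and 7 in WT, 4 and 8 in SIRT1intKO).

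Between genotypes at 24 h, 5 list genes passed, 4 higher and 1 lower in SIRT1intKO, which is 5.13% and 1.28% against 2.3% and 3.51% of all tested genes. The WT and SIRT1intKO libraries overlapped for all of these but Decr2. They were Fgf21 (2.85, edgeR adjusted p = 0.0329), the lipin Lpin2 (1.04, adjusted p = 0.0416), the thioesterase Acot12 (0.82, adjusted p = 0.0183) and the peroxisomal dienoyl-CoA reductase Decr2 (0.59, adjusted p = 0.0463), all higher, and Slc16a1 (−1.19, adjusted p = 0.00816). In the fit of the 24 h groups alone these had adjusted p-values of 0.259 to 0.296, and with 1 library left out at a time the Decr2 call was lost with any of 26 of the 34, Lpin2 with any of 7, Fgf21 with any of 5 and Slc16a1 with 1 (−0.62 without WT replicate 2). Without the 3 libraries they were at 2.93 for Fgf21 (adjusted p = 0.0466), 1.43 for Lpin2 (adjusted p = 0.0157), 1.00 for Acot12 (adjusted p = 0.00752), 0.84 for Decr2 (adjusted p = 0.0129) and −1.81 for Slc16a1 (adjusted p = 6.45e-06). In all, 18 list genes were then higher and 2 lower of 78, against 8.19% and 9.36% of all genes, and 9 higher and 1 lower in the interaction at 24 h, against 3.09% and 3.53%, where 0 passed with all libraries. The leaving out was chosen after the data were seen and leaves 2 WT libraries at 24 h. Of the cell type markers, 1 of 6 hepatocyte markers, Alb (0.85, adjusted p = 0.0278), 1 of 6 macrophage and Kupffer cell markers, Marco (2.28, adjusted p = 0.018), and 1 of 3 intestinal epithelium markers tested, Fabp2 (1.46, adjusted p = 0.028), were higher in SIRT1intKO at 24 h. The other tested markers of these 3 lists did not pass and lay on both sides of zero. Those below it were Tat (−0.13), Cps1 (−0.15), Clec4f (−0.08) and Lgals4 (−0.31). Fabp2 was at 23.2 CPM or more in every liver library, whereas the intestinal markers Vil1 and Cdh17 were at most 0.801 and 1.87 CPM. The part of these cell types in the differences between genotypes was not tested.

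The genes whose log2 CPM followed each member most closely over the 34 libraries were sought among 12385 genes, as a description in which libraries share time and genotype. Cpt1a went with Gpt2 (Pearson r 0.94), Atl2 (0.91) and Slc22a5 (0.91), the last of these the carnitine importer. Hadh went with Galm (0.98), Pygl (0.97) and Akr1c20 (0.97), and Ppard with Mreg (0.95), Nrep (0.95) and Dynll2 (0.94). Pdk4 was nearest to Ibtk (0.92), Scyl2 (0.91) and Stx12 (0.90), and Ehhadh to Retsat (0.84), Chrna2 (0.83) and Acad11 (0.83). The lowest likeness was that of Ppara, with Angptl4 (0.78), Pex11a (0.75) and Cln8 (0.75), and Angptl4 in turn was nearest to Txnip (0.80), Ppara (0.78) and Sbk1 (0.77). Cyp4a10 was nearest to Cyp4a14 (0.86), Crat (0.84) and Hadhb (0.79), and Cyp4a14 to Cyp4a31 (0.86), Cyp4a10 (0.86) and Slc16a5 (0.82), where the Cyp4a pairs may share reads.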

How the data were processed

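Bulk RNA sequencing of 34 mouse liver samples was used. The authors prepared stranded messenger RNA libraries and deposited gene-level expected counts made with STAR and Salmon, and the submitters' processing notes name GRCm39. Of 35 value columns, 1 matched no labelled library and was not used. The letter x is missing from the deposited symbols, so genes were matched by Ensembl identifier. Expected counts, of which 4.97% were not whole, were rounded. Labels call the samples biological replicates, and no 2 libraries of a group agreed within sampling noise (lowest chi-square per gene 14.7). Library totals were 14892122 to 23480492 counts. Intervals are 95% intervals of the fit, which take in the spread between libraries of a group as well as counting noise.

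Counts were fitted in edgeR 4.0.16 (R 4.3.3) with TMM scaling, filterByExpr by group, and 1 mean per genotype and time over the 34 libraries (common biological coefficient of variation 0.302), followed by the quasi-likelihood test with Benjamini-Hochberg adjustment over 14980 genes. CPM values are unlogged, scaled by TMM. DESeq2 1.42.0, the tool of the study, was an alternative. Other alternatives were DESeq2 size factors in edgeR, upper-quartile scaling, other filters on low counts, a fit of only the groups compared, the replicate number as a block, each library left out in turn, and, chosen after the data were seen, the 3 libraries standing apart at 24 h left out. Same-numbered samples of compared groups did not deviate together (correlations −0.294 to 0.212), so numbers were not treated as pairs.

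The 9 genes and the lists were chosen with earlier results of these data known. Named were the 9 genes, in each list the largest rise and fall that passed against 0 h with a mean of at least 1 CPM, every list gene that passed between genotypes, and the 3 most alike genes of each member, of which 1 list gene is not reported here. Hepatocyte and other cell markers were read from fixed lists. Promoter windows are from RefSeq GRCm38.p6. The build differs from that of the counts, so no gene coordinates are given for the counts.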

Additional observations from a re-analysis of the deposited data

Results flagged for a closer look

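Of 54 sets of libraries (9 genes in 6 groups), 5 held a single library far from the rest by Dixon's criterion, which chance alone meets in about 1 in 20 groups of 4 to 10. In SIRT1intKO at 24 h, replicate 5, one of the 3 libraries standing apart, was the highest for Cyp4a10 at 587 CPM (next 274 CPM), for Cyp4a14 at 849 CPM (next 284 CPM) and for Hadh at 159 CPM (next 114 CPM). In the same group, replicate 1 was the highest for Cpt1a at 361 CPM (next 258 CPM), and the 24 h rise of Cpt1a in SIRT1intKO did not pass without it. In SIRT1intKO at 6 h, replicate 2 was the highest for Ehhadh at 245 CPM (next 136 CPM). The cause of these values was not tested.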

How the results depend on the processing

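Counts are given as genes that passed, with "list" for the 78 pathway genes. Shares of all genes stand above for the main fit and for the fit without the 3 libraries. The other settings are given without that share, so their counts show only how far each count moved. With DESeq2, SIRT1intKO against WT at 24 h gave 1 member and 9 list genes higher. Upper-quartile scaling and a minimum of 10 counts moved Ehhadh at 24 h in SIRT1intKO to −0.024 and −0.010, and the latter gave 1 list gene higher from 6 to 24 h in SIRT1intKO. A minimum of 1 count gave 17 list genes lower from 6 to 24 h in SIRT1intKO and 2 higher between genotypes at 24 h. Fitting only the groups compared gave 11 list genes lower at 6 h in SIRT1intKO, at 24 h in WT 1 member higher, 1 lower and 15 list genes lower, from 6 to 24 h in WT 0 members higher and 2 lower with 1 list gene higher and 18 lower, and between genotypes at 24 h 0 list genes higher and 0 lower. With the replicate block, 1 member was higher at 24 h in WT (Cyp4a14 at 2.38, adjusted p = 0.074, did not pass), 1 list gene was higher and 14 lower from 6 to 24 h in SIRT1intKO, and 1 was higher between genotypes at 24 h, and in no comparison did every sample correlate best with its own number. Without the 3 libraries standing apart, 1 member was higher and 39 list genes lower at 24 h in WT, with Cyp4a10 at −1.86 and Cyp4a14 at −0.89, 7 members were lower and 6 list genes higher from 6 to 24 h in WT, 2 members lower in SIRT1intKO, 4 members and 18 list genes higher and 2 lower between genotypes, and 2 members and 9 list genes higher and 1 lower in the interaction at 24 h. Leaving out 1 library at a time, members higher at 24 h in WT ranged from 1 to 2 (1 without WT 24 h replicate 3 or 4, or WT 0 h replicate 1, 3, 5 or 6). Between genotypes at 24 h, 0 to 1 members were higher (1 without SIRT1intKO replicate 5 or WT replicate 4) and 0 to 1 lower (Ppard, without WT replicate 1 or SIRT1intKO replicate 5), with 2 to 8 list genes higher and 0 to 6 lower. From 6 to 24 h, list genes ranged in WT from 2 to 5 higher and 23 to 39 lower, and in SIRT1intKO from 1 to 3 higher and 15 to 30 lower with 1 to 2 members lower. Ehhadh ranged from −0.32 to 0.047 at 6 h and −0.27 to 0.16 at 24 h in SIRT1intKO, and Angptl4 from −0.23 to 0.012 at 24 h in SIRT1intKO. The cause of these shifts was not tested. With 4 WT libraries at 24 h, 2 of them standing apart, genotype differences at that time are the least certain.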
